A study of Mus musculus with 2 samples.

Results

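The genes described here are those of the major histocompatibility complex (MHC) and of antigen presentation in the mouse heart. The rule took every protein-coding gene whose symbol starts with H2-, the prefix of the mouse MHC, and added B2m, Tap1, Tap2, Tapbp, Cd74, Ciita and Nlrc5. This gave 41 of the 22028 protein-coding genes of the annotation. Of these, 37 lie on chromosome 17 between 33915899 and 37483552 (mm10), and B2m, Nlrc5, Ciita and Cd74 lie on chromosomes 2, 8, 16 and 18.

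Total RNA was sequenced from the hearts of 2 male mice aged 25 days of the strain B6CASTF1/J, 1 library per animal from 300 ng of RNA. The animals carry numbers 3 (replicate 1) and 4 (replicate 2) in a tissue bank, but the labels give both the same donor identifier, so they were treated as 2 animals of 1 group on the animal numbers alone. Both are F1 hybrids of C57BL/6 and CAST/EiJ mice and therefore carry 2 MHC haplotypes, while reads were assigned to the reference transcripts only. No second genotype, treatment, tissue or age was labelled, so no comparison between groups exists.

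MHC class I molecules consist of a heavy chain and the light chain beta-2-microglobulin (B2m), and they show peptides from inside the cell to CD8 T cells. The peptides are cut by the proteasome, carried into the endoplasmic reticulum by the transporter Tap1 and Tap2, and loaded with the help of tapasin (Tapbp). MHC class II molecules pair an alpha with a beta chain, travel with the invariant chain Cd74, and show peptides from endosomes to CD4 T cells, mostly on dendritic cells, macrophages and B cells. Nlrc5 and Ciita are the transactivators of class I and class II genes, and interferon gamma induces both classes.

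The 2 libraries held 38253798 and 40655078 estimated counts over genes, of which the members took 10283 and 10952. Values are TPM (transcript abundance per base of length, scaled so that all libraries sum alike) of the first of 2 deposited quantifications, given for replicate 1 and then replicate 2, and as mean ± SD (n = 2). With 1 group of 2 hearts no test is possible between conditions, and an exact sign-flip test could not give a two-sided p below 0.5. Heart muscle markers were high, with Myh6 at 8807 and 8307 TPM, and of 6 lymph node and thymus epithelium markers Foxn1, Aire, Psmb11 and Prss16 had 0 counts in both hearts. The other markers of that list, the chemokines Ccl21a and Cxcl13, had 15.0 and 19.5 TPM and 3.90 and 0.57 TPM. Adipocyte markers summed to 221 and 31.4 TPM, with Adipoq, Plin1, Cfd and Retn 2-fold or more lower in replicate 2. Red cell markers summed to 46562 and 23411, with Hba-a1, Hba-a2 and Hbb-bs 2-fold or more lower. The marker levels of these cells differed between the hearts, and their part in the results below was not tested. In whole tissue, fewer cells of a type and less RNA per cell cannot be told apart.

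B2m, the classical class I heavy chains and Tapbp had higher levels than the class II genes, and most of the other heavy chain genes lay below 1 TPM. In both hearts 16 of the 41 members reached 1 TPM, against 49.5% of all protein-coding genes. The members summed to 255 and 256 TPM. B2m, the shared light chain, led with 52.5 and 54.2 TPM (53.4 ± 1.22) and stood at rank 922 among protein-coding genes. H2-D1, one of the classical heavy chains, had 33.8 and 32.0 TPM (32.9 ± 1.24). H2-K1, the other, had 29.3 and 31.6 TPM (30.4 ± 1.62). H2-D1 and H2-K1 did not differ beyond their spread, at a log2 ratio of 0.11 ± 0.13. By the second quantification H2-D1 was ahead in both hearts, at 38.9 and 39.2 TPM against 27.5 and 32.1 for H2-K1.

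B2m lay slightly below the summed gene totals of H2-K1 and H2-D1. The summed TPM of H2-K1 and H2-D1 was 63.1 and 63.6, so B2m over that sum stood at a log2 ratio of -0.25 ± 0.02. All class I heavy chains together summed to 81.3 and 84.7 TPM. On transcripts annotated as protein-coding alone, the sum of H2-K1 and H2-D1 was below B2m in the first quantification and above it in the second. Classical heavy chains exceeded the class II chains H2-Aa, H2-Ab1 and H2-Eb1 together by 1.72 and 2.10 on the log2 scale (1.91 ± 0.27, 3.76-fold). They exceeded all 22 other H2-Q, H2-T and H2-M genes together by 1.68 ± 0.14 on that scale, or 3.21-fold. All log2 ratios between genes are of TPM + 0.1, with all transcripts of a gene included, coding or not.

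**Figure D1:**
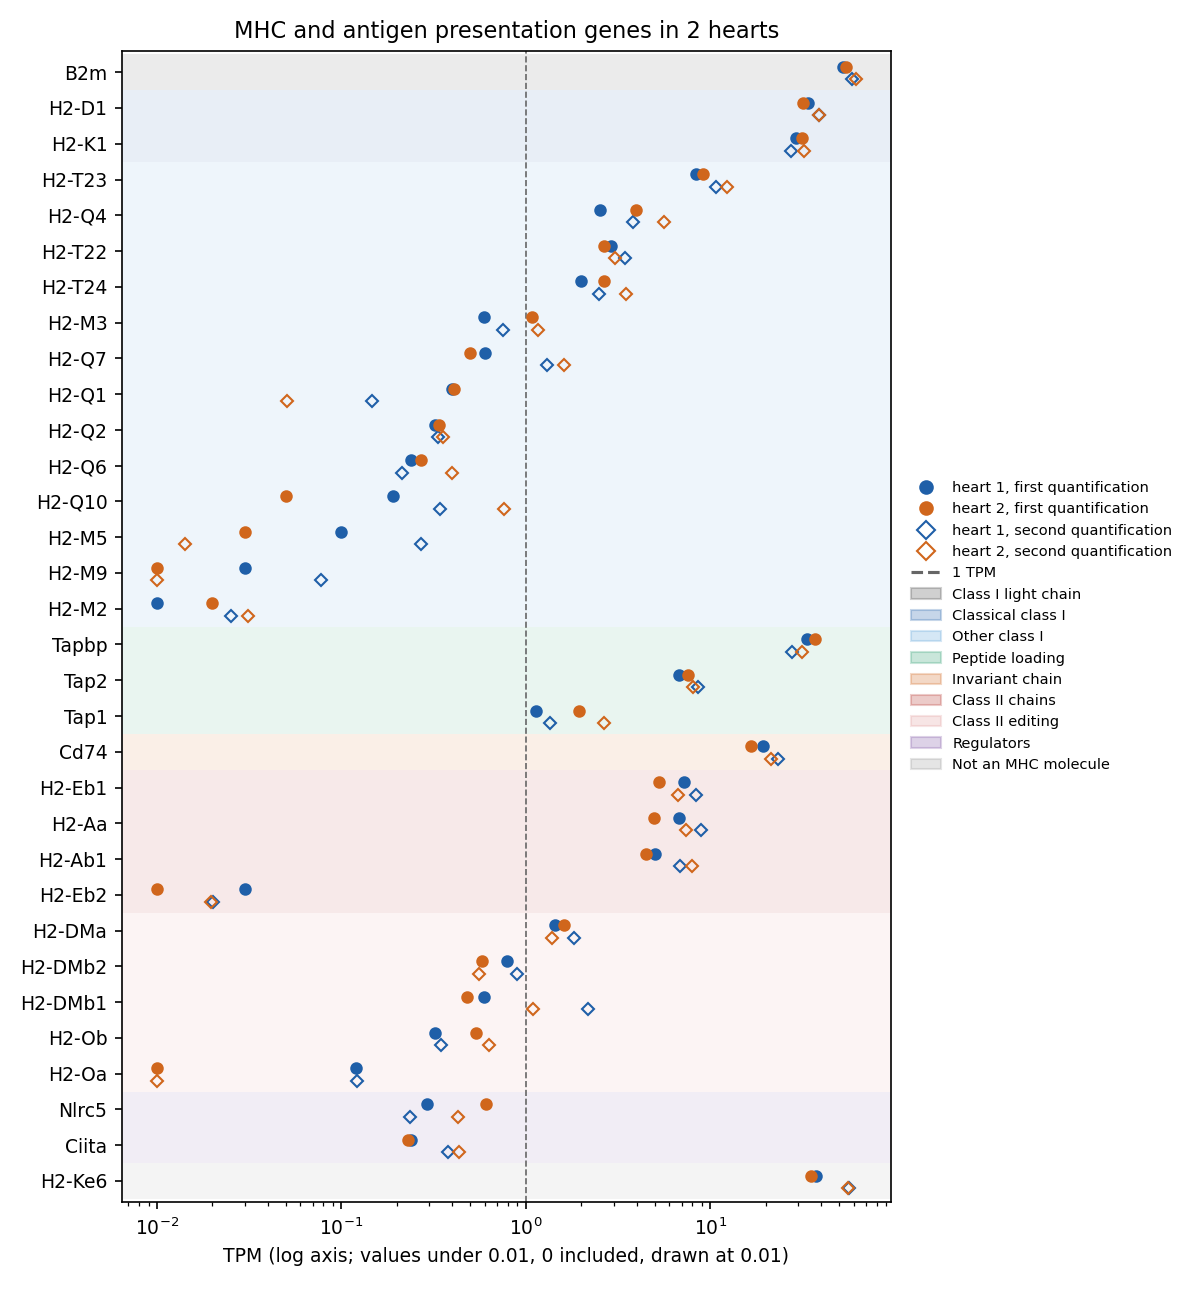
TPM (log axis) of the 32 members with a count in either heart, grouped by role; filled circles are the first and open diamonds the second quantification, blue is heart 1 (replicate 1) and orange heart 2 (replicate 2), and the dashed line marks 1 TPM. B2m, H2-D1, H2-K1, Tapbp and H2-Ke6 lie above 25 TPM in each heart and quantification, while most H2-Q and H2-M genes lie left of the line.

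Of all class I heavy chain TPM, H2-D1 took 41.5% and 37.8% and H2-K1 took 36.0% and 37.3%. H2-T23, which encodes the Qa-1 molecule that presents leader peptides of other class I chains to natural killer cell receptors, took 10.3% and 10.8%. Its level was 8.38 and 9.15 TPM (8.77 ± 0.544). The remaining heavy chain genes above 1 TPM were H2-Q4 with 2.54 and 3.95 TPM (3.25 ± 0.997), H2-T22 with 2.89 and 2.66 (2.78 ± 0.163) and H2-T24 with 1.99 and 2.65 (2.32 ± 0.467). H2-T22, a ligand of certain gamma delta T cell receptors, did not differ from H2-Q4 or from H2-T24 beyond the spread between hearts. H2-Q4 was above H2-T24 in both hearts, also in the second quantification, with 3.83 and 5.59 TPM against 2.49 and 3.52.

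Below 1 TPM in at least 1 heart, H2-M3, which presents formylated bacterial peptides, had 0.59 and 1.08 TPM from 26 and 51 counts. H2-Q7, a Qa-2 molecule, had 0.60 and 0.50 TPM, and H2-Q1, H2-Q2 and H2-Q6 lay between 0.24 and 0.41 TPM. H2-Q10, known as a secreted product of liver, had 0.19 and 0.05 TPM. The 12 H2-M genes summed to 0.72 and 1.13 TPM, most of it from H2-M3, and 8 of them had 0 counts in both hearts, as had H2-T3. The limit set by a count of 0 is 3 counts, which in CPM (counts scaled to a common library total) is 0.0784 in replicate 1 and 0.0738 in replicate 2.

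Upstream sequences are shown for members that share the X2 and Y boxes bound by the complex through which Nlrc5 and Ciita act, and for 2 relatives. Of the 41 members, 34 matched an entry in the RefSeq promoter table (GRCm38.p6, the patch series of mm10). Ciita, Tap2, Cd74, H2-T24, H2-Ab1, Nlrc5 and H2-Q1 had none. The 250 bases upstream of each start were searched on both strands. The core of the X2 box, TGACG, was found in 14 of the 34 members and 17.8% of all 32851 promoters, and the Y box, CCAAT, in 31 members and 33.9% of all. TGACG followed by ATTGG (the Y box on the other strand) after 19 to 21 bases was found in 6 members, B2m, H2-K1, H2-D1, H2-Q7, H2-M3 and H2-Aa, and in 0.189% of all promoters. That spacing was chosen after the sequences were seen. A match is a description of letters and not a site shown to be bound. Each stretch ends before any annotated exon, runs 5′ to 3′ on the gene's strand, and has all matches of the motifs named here in capitals.

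B2m, chr2:122147506-122147685, plus strand: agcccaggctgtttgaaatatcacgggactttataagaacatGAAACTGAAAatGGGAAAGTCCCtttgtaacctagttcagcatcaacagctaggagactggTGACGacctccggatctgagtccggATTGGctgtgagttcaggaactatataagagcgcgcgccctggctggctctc
H2-K1, chr17:34000348-34000527, minus strand: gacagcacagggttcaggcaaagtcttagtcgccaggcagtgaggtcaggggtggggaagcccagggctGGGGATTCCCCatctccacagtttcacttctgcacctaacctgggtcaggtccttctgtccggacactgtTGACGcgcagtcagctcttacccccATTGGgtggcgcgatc
H2-M3, chr17:37270040-37270219, plus strand: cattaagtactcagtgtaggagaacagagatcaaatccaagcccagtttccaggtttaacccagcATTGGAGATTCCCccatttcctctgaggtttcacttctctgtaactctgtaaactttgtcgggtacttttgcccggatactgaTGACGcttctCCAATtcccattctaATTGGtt
H2-Aa, chr17:34287824-34288003, minus strand: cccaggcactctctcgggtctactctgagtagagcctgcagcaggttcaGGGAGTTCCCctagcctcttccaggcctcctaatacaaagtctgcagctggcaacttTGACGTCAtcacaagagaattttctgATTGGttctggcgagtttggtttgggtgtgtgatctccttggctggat
H2-Q7, chr17:35438975-35439154, plus strand: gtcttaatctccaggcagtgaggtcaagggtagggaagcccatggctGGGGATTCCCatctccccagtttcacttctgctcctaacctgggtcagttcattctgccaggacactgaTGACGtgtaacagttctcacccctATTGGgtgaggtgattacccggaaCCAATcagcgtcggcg
H2-Q6, chr17:35424670-35424849, plus strand: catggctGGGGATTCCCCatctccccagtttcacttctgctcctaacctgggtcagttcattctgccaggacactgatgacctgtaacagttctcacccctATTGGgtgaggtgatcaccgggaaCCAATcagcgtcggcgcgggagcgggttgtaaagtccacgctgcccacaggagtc
H2-Q10, chr17:35469909-35470088, plus strand: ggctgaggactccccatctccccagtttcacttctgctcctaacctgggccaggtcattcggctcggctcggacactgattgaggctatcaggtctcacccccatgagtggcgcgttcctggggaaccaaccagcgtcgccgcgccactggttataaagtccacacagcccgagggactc

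The boxes were 20 bases apart in B2m, H2-K1 and H2-M3, 21 in H2-Aa and 19 in H2-Q7. Over the 29 bases from TGACG to ATTGG of H2-Q7, H2-Q6 differed by the single substitution G5C, counted from 1 at the first base of TGACG, which removes that match. H2-Q10 differed from H2-Q7 at 10 of these 29 bases. The other capitals upstream of B2m are the core of the interferon-stimulated response element, GAAA, any 2 bases and GAAA, and the loose kappaB motif, GGGA, any 4 bases and CC. The response element core was found in 3 members (B2m, H2-T22 and H2-T23) and 2.98% of all promoters, and kappaB in 12 members and 17.6% of all. In H2-M3 the kappaB match overlaps a Y box, and in H2-Aa the palindrome TGACGTCA holds TGACG on both strands. The core of the X1 box, AG, any 2 bases, AC, any base and GATG, was found in 8 members (H2-Eb1, H2-Eb2, H2-DMb1, H2-Oa and 4 H2-M10 genes) and 0.816% of all promoters. The class I members with the X2 and Y spacing included B2m at 53.4 TPM and H2-Q7 at 0.55 TPM.

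The peptide loading genes spanned a wide range. Tapbp, which bridges the transporter and the empty heavy chain, had 33.6 and 37.2 TPM (35.4 ± 2.54). Tap2 had 6.79 and 7.59 TPM (7.19 ± 0.566) and Tap1 had 1.13 and 1.95 (1.54 ± 0.580). The gene totals of the 2 subunits were thus unequal, with Tap1 over Tap2 at log2 ratios of -2.49 and -1.91 (-2.20 ± 0.41, 4.58-fold). Transcripts annotated as protein-coding took 30.1% and 27.4% of the Tap2 total and 95.2% and 58.5% of the Tap1 total. The gap between coding transcripts was therefore smaller than that between the totals. Tapbp exceeded its relative Tapbpl, a peptide editor of class I, by 4.41 ± 0.21 on the log2 scale. Of a list of 14 peptide loading and trimming genes, 14 reached 1 TPM, with the chaperone Hspa5 highest at 171 and 245 TPM. Tap1 and Tapbpl (1.66 and 1.48 TPM) were lowest and did not differ beyond their spread.

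Class I peptides are cut by a proteasome whose 3 catalytic subunits are exchanged for Psmb8, Psmb9 and Psmb10 in the immunoproteasome. Each of these lay below the subunit it replaces. Psmb8 had 4.03 and 4.21 TPM, a log2 ratio of -3.99 ± 0.11 to Psmb5, and Psmb10 had 18.5 and 23.2 TPM, a log2 ratio of -2.06 ± 0.17 to Psmb7. Psmb9 had 0.80 and 3.04 TPM, a log2 ratio of -5.57 ± 1.21 to Psmb6. Of the genes in these pairs, Psmb9 alone differed 2-fold or more in count between the hearts, with 31 and 78 counts.

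The class II chains H2-Eb1, H2-Aa and H2-Ab1 were measured in both hearts between 4.50 and 7.22 TPM each. Their invariant chain stood at about the sum of the chains when gene totals are taken. Cd74, the invariant chain, had 19.4 and 16.6 TPM (18.0 ± 1.99). H2-Eb1, the E beta chain, had 7.22 and 5.30 TPM (6.26 ± 1.36), of which 7.07% and 9.27% were on transcripts annotated as protein-coding. H2-Aa, the A alpha chain, had 6.78 and 4.98 TPM (5.88 ± 1.27), and H2-Ab1, its beta partner, had 5.03 and 4.50 (4.77 ± 0.375). The ratio of Cd74 to the summed chains was 0.10 ± 0.10 on the log2 scale, which does not exceed its spread, and it stood at -0.05 in both hearts in the second quantification. H2-Ab1 over H2-Aa stood at log2 ratios of -0.42 and -0.14 (-0.28 ± 0.20), and in the second quantification that order was not kept in replicate 2. H2-Eb2 had 3 counts in replicate 1 and 0 in replicate 2.

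Among the class II editors, H2-DM, which frees the groove of the invariant chain peptide, was above H2-DO, its inhibitor, by 2.28 ± 0.22 on the log2 scale. H2-DMa had 1.44 and 1.62 TPM (1.53 ± 0.127) from 43 counts in each heart. H2-DMb2 had 0.79 and 0.58 TPM, H2-DMb1 had 0.59 and 0.48, and H2-Ob had 0.32 and 0.54. H2-Oa, the alpha chain of H2-DO, had 4 counts in replicate 1 and 0 in replicate 2. Of 17 class II processing genes found in the annotation, 12 reached 1 TPM, with the protease inhibitor Cst3 highest at 318 and 336 TPM. Ctss, the protease that trims the invariant chain in antigen-presenting cells, had 5.43 and 4.85 TPM, a log2 ratio of -4.09 ± 0.07 to Ctsl.

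**Figure D2:**
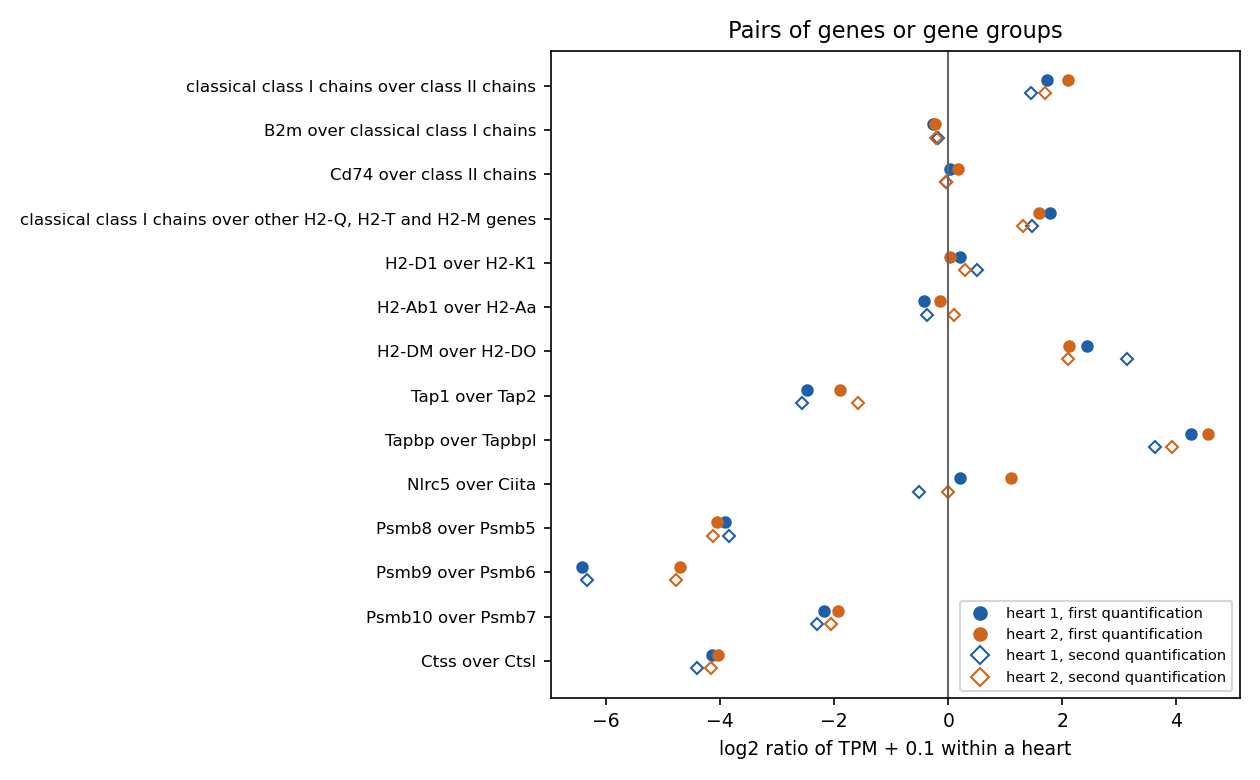
Log2 ratio of TPM + 0.1 within each heart for the 14 pairs of genes or groups; filled circles are the first and open diamonds the second quantification, blue heart 1 (replicate 1) and orange heart 2 (replicate 2). In 12 of the 14 pairs both filled circles lie on one side of 0 with a mean larger than the SD, and the pairs of Nlrc5 with Ciita and of Cd74 with the class II chains change side between the quantifications.

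Both transactivators had low levels. Nlrc5 had 0.29 and 0.61 TPM from 23 and 45 counts, and Ciita had 0.24 and 0.23 TPM from 20 and 43 counts. Nlrc5 lay above Ciita by log2 ratios of 0.20 and 1.10 in the first quantification and stood at -0.26 ± 0.35 in the second, so their order could not be told. For Ciita, counts differed between the hearts while TPM did not. In replicate 1, 35.9% of its TPM was placed on the 680-base transcript Ciita-208 from 1.67 counts, and in replicate 2, 81.9% was on the 6007-base Ciita-201 from 39.04 counts. Of 13 regulators of MHC transcription, 11 reached 1 TPM, and the 2 others were Nlrc5 and Ciita. The acetyltransferase Kat2b was highest with 27.8 and 30.6 TPM. Ifng, the gene of interferon gamma, had 0 counts in both hearts, while its receptor chain Ifngr2 had 48.1 and 54.6 TPM. The X and Y box factors Rfx5, Rfxap, Rfxank, Nfya, Nfyb, Nfyc and Creb1 all reached 1 TPM, so the 2 transactivators stood lowest in the list.

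H2-Ke6 carries the prefix because of its place in the complex, but it encodes a 17-beta-hydroxysteroid dehydrogenase and no MHC molecule. It had 37.6 and 35.1 TPM (36.4 ± 1.80), which did not differ from Tapbp beyond the spread in the first quantification. In the second, H2-Ke6 was above Tapbp in both hearts, at 56.9 and 55.6 TPM against 27.7 and 31.4. Of its 100-base transcript stretches 61.6% also occur in transcripts of Gm20427, so reads from these stretches cannot be assigned to one of them by sequence.

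No member that averaged at least 1 CPM differed 1.5-fold between the hearts, while the counting intervals of several excluded 0. Differences are log2 ratios of replicate 2 over replicate 1 of counts scaled by TMM factors, with exact binomial 95% intervals that cover counting error only. There is 1 library per animal, so none of them has a replicate check. Among the 16 members that averaged at least 1 CPM, 0 were 2-fold apart, against 1.22% of the 12913 genes at that level, and 0 were 1.5-fold apart, against 4.56% (1.6% higher and 2.97% lower). The median was -0.09 over these members and 0.01 over all genes, with 7 members higher and 9 lower in replicate 2 (43.8% higher, against 52.2% of all genes). Scaled by spike-in totals, 3 were higher and 13 lower, with the median of all genes at -0.13. With TMM the interval lay above 0 in 3 members, against 16.7% of all genes, and below 0 in 4, against 16.5%, or 7 of 16 against 33.3% in all. These interval counts depend on the scaling and were not recomputed with spike-in totals. That scaling lowered every ratio alike, for example B2m to -0.13, H2-K1 to -0.14 and Tap1 to 0.23.

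H2-Q4 had the largest positive difference, with 152 and 249 counts and a log2 ratio of 0.57 (0.28 to 0.87). H2-T24 followed with 127 and 194 counts (0.47, 0.14 to 0.81), and Tap1 with 102 and 146 (0.38, 0.0034 to 0.76). H2-M3, Nlrc5, H2-Ob and Ciita lay under the CPM filter, and each was more than 1.5-fold higher in replicate 2, with 51, 45, 27 and 43 counts there against 26, 23, 13 and 20. The shares over all genes cover genes at 1 CPM or more, so none is given for members under the filter. The interval of H2-Ob held 0 (-0.09 to 1.99). H2-Q10, also under the filter, was 2.34-fold lower in replicate 2, with 17.2 and 7.88 counts (log2 ratio -1.23, -2.65 to 0.06). B2m and H2-K1, in contrast, stood at 0.01 (-0.10 to 0.12) and 0.0029 (-0.13 to 0.13). H2-T23, Tap2 and Tapbp also had intervals that held 0.

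The 5 class II members that passed the filter (H2-Aa, H2-Eb1, Cd74, H2-Ab1 and H2-DMa) all lay below 0, as did 47.8% of all genes, and the intervals of 3 of them excluded 0, against 16.5%. H2-Aa had 228 and 179 counts and a log2 ratio of -0.49 (-0.78 to -0.20), H2-Eb1 had 212 and 179 (-0.38, -0.68 to -0.09), and Cd74 had 748 and 691 (-0.25, -0.40 to -0.10). H2-Ab1, with 173 and 159 counts, had an interval from -0.58 to 0.06, and H2-DMa, with 43 in each heart, one from -0.78 to 0.51. Of the class II editors under the filter, H2-Ob lay above 0, and H2-DMb2 (-0.47), H2-DMb1 (-0.26) and H2-Oa (-0.55) lay below it. The H2-Oa value sets its 0 counts in replicate 2 to the limit of 3. Each of these editors had an interval that held 0. H2-D1 also lay below 0, by -0.13 (-0.22 to -0.04). In the deposited TPM bounds, which do not state their confidence level, H2-Q4, H2-Aa and Cd74 were apart between the hearts among the 16 members at 1 TPM, against 14% of all protein-coding genes.

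**Figure D3:**
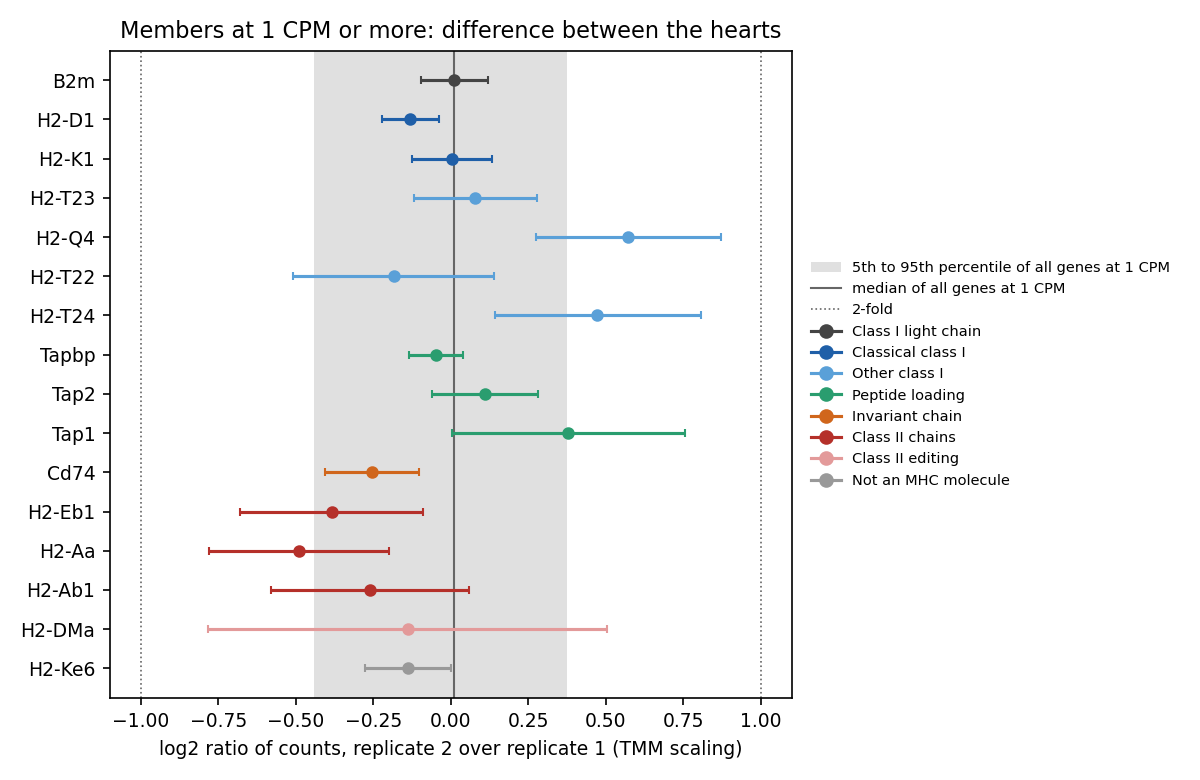
Log2 ratio of counts in replicate 2 over replicate 1 (TMM scaling) for the 16 members at a mean of 1 CPM or more, with exact binomial 95% intervals, coloured by role; the grey band spans the 5th to 95th percentile of all genes at that level, the solid line is their median and dotted lines mark 2-fold. H2-Q4, H2-T24 and Tap1 lie right of the band, H2-Aa lies left of it, and the other 12 points lie within it.

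Among immune cell markers, the macrophage sum was lower in replicate 2, while the dendritic cell, B cell and T cell sums differed less. Of 12 macrophage markers past the filter, 9 were lower and 3 higher in replicate 2, while 47.8% of all genes were lower. The whole list of 13 summed to 173 and 127 TPM. Lyz2 made up most of that gap, with 83.1 and 42.4 TPM, and Cx3cr1 went the other way, with 0.72 and 1.81 TPM. The 10 dendritic cell markers summed to 5.53 and 5.36 TPM, of which Zbtb46 gave 3.59 and 3.60, and Xcr1 had 1 count in each heart. The 7 B cell markers summed to 8.24 and 7.41 TPM and the 7 T cell markers to 4.55 and 4.45. None of 17 T cell and natural killer receptors for MHC reached 1 TPM in both hearts. Natural killer cell markers summed to 0.08 and 0.25 TPM and neutrophil markers to 0.79 and 1.12. The part of these cells in the lower class II values was not tested.

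Genes related to the MHC under other symbols were partly at 0. Of 12 class I-like genes, 6 reached 1 TPM and Azgp1, Raet1e and Mill1 had 0 counts. Fcgrt, the heavy chain of the neonatal Fc receptor, which also pairs with B2m, was highest with 25.3 and 23.6 TPM, below H2-K1 in both hearts. Cd1d1, which presents lipids to natural killer T cells, was 1.5-fold or more lower in replicate 2, with 85 and 57.9 counts (log2 ratio -0.69, -1.20 to -0.19). Of a list of 8 genes of costimulation and inhibition, Ciita among them, 2 reached 1 TPM, of which the adhesion molecule Icam1 was higher with 2.37 and 2.74 TPM, and Cd80 and Cd86, the ligands of CD28, stayed below 1 TPM.

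Interferon-induced genes were higher in replicate 2 in 8 of the 10 list members past the filter, against 52.2% of all genes. Of the 10, 5 were 1.5-fold or more higher, against 1.6% of all genes. Those 5 were Ifit3, Mx2, Gbp3, Gbp4 and Gbp7, named after their values were seen. Of 11 regulators of the interferon gamma response, 9 reached 1 TPM, with 3 higher and 6 lower. Of 8 regulators of the type I interferon response, 4 were higher and 3 lower, with the receptor chain Ifnar2 highest at 13.5 and 12.4 TPM. Of the immunoproteasome and activator list, 6 of 6 were higher in replicate 2, against 52.2% of all genes, with a median log2 ratio of 0.16. The constitutive subunits Psmb5, Psmb6 and Psmb7 were also higher, 3 of 3, with a median of 0.06. Psmb9, which lies beside Tap1 in the complex, had the largest log2 ratio of the 6, at 1.19 (0.57 to 1.84). Of 28 neighbours in the MHC region past the filter, 12 were higher and 16 lower. Of these, Psmb9 was 2-fold or more higher, against 0.31% of all genes, and C4b, C2, Cfb and Hspa1b were 2-fold or more lower, against 0.906%. C4b, a complement gene, had the highest level among those 4, with 19.6 and 8.32 TPM. Beside them in the same region, H2-K1 and H2-D1 stood at 0.0029 and -0.13.

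Some members share sequence with relatives, and the part of shared reads in their levels was not tested. Every 100-base stretch of transcript sequence was unique to its gene in 27 of the 41 members, and 5 members, H2-Ke6, H2-Q7, H2-Q6, H2-DMb1 and H2-DMb2, had under 90% unique stretches. H2-DMb1 and H2-DMb2 share 11.3% and 10.3% of their stretches with each other. H2-Q7 had 88.0% unique stretches and shared others with 10 genes. For H2-D1 and H2-K1 the unique share was 96.4% and 99.0%, and for B2m, Cd74, H2-Aa, H2-Ab1 and H2-Eb1 it was 100%. These shares are of the reference, and how well CAST reads match it was not tested.

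The second deposited quantification, made without a deposited alignment, gave higher TPM for 16 of the 18 members at 1 TPM or more in either, against 90.5% of all protein-coding genes, with a median log2 ratio of 0.34, against 0.28. H2-DMb1 and H2-Q7 were 2-fold or more apart, or 11.1% of 18, against 3.59% of all genes (2.95% higher and 0.638% lower in the second). Both were higher in the second. H2-Q7 had 1.30 and 1.61 TPM in the second, from 68.7 and 64.5 counts against 29.0 and 27.1 in the first. H2-DMb1 had 2.17 and 1.09 TPM, of which 1.07 and 0.61 were placed on a 522-base transcript with a retained intron, H2-DMb1-202.

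H2-Q1 and H2-Q10, both below 1 TPM, moved in opposite directions. H2-Q1 had 24.9 and 27.4 counts in the first and 8.54 and 4.27 in the second, and H2-Q10 had 17.2 and 7.88 counts and then 27.0 and 53.3. The heart with more H2-Q10 reads therefore depended on the quantification. All 6 H2-Q genes together had 244 and 339 counts in the first and 328 and 438 in the second, higher in replicate 2 in both. Among the members at 1 TPM or more, H2-K1 (log2 second over first -0.03) and Tapbp (-0.26, with 27.7 and 31.4 TPM in the second) were the 2 that were not higher in the second.

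**Figure D4:**
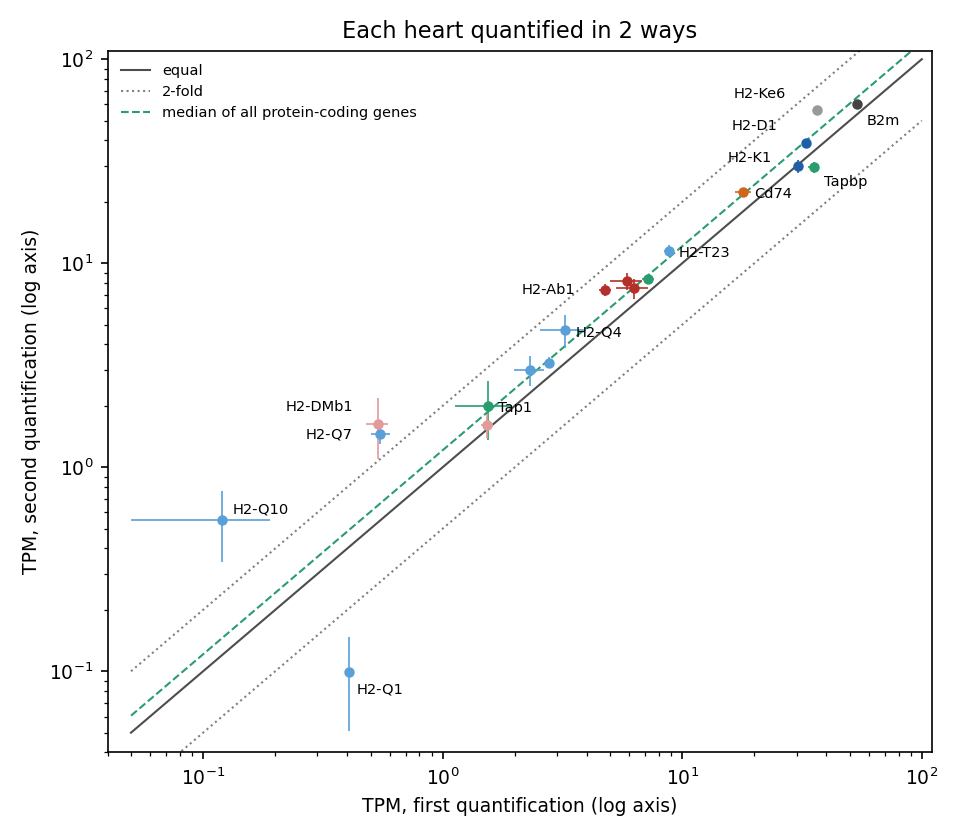
Mean TPM over both hearts in the second against the first quantification (log axes) for the 18 members at 1 TPM or more in either, plus H2-Q1 and H2-Q10; bars span the 2 hearts, colours mark roles as in the plot of levels, the solid line is equality, dotted lines mark 2-fold and the dashed line is the median of all protein-coding genes. H2-DMb1, H2-Q7 and H2-Q10 lie above the upper dotted line and H2-Q1 lies below the lower one.

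Several members owed a large share of their TPM to transcripts annotated as not coding for protein. Of the 15 members at 1 TPM with 2 or more transcripts, 14 had the same leading transcript in both hearts (93.3%, against 88.3% of all such genes), and 11 of those had the same leader in both quantifications too. H2-K1 was led by H2-K1-215, a 457-base transcript with a retained intron, at 41.0% and 44.2% of its TPM from 141 and 176 of its counts. In the second quantification that transcript had 0%, and protein-coding transcripts took 90.9% and 94.7% of H2-K1 instead of 54.6% and 51.3%. The gene had 29.8 TPM in the second quantification against 30.4 in the first, a log2 ratio of -0.03, while the median of all protein-coding genes was 0.28. Its counts were 1074 and 1182 in the second against 937 and 1034 in the first. The part of H2-K1-215 in the gene's level was not tested.

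H2-Eb1 was led by H2-Eb1-205, annotated as subject to nonsense-mediated decay, with 55.8% and 63.5% of TPM in the first and 58.2% and 69.8% in the second quantification. Its 2 protein-coding transcripts together took 7.07% and 9.27%, and 15.4% and 13.0% in the second. Tap2 was led by Tap2-202, with a retained intron, at 69.9% and 72.6%, and at 43.1% and 58.8% in the second. H2-Eb1 and Tap2 were thus led by transcripts not annotated as protein-coding in both hearts and both quantifications. Tap1 differed between the hearts, with its retained-intron transcript Tap1-203 at 0% and 32.8% of TPM, from 0 and 14.8 counts, and at 4.01% and 42.0% in the second.

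In the first quantification H2-T22 was the member whose leader changed between the hearts, and in the second it was H2-DMa. With protein-coding transcripts alone, H2-Eb1 changed too. H2-T22-203 took 70.3% and 30.3%, and H2-T22-202 took 24.0% and 64.4%, while the second quantification gave H2-T22-203 92.8% and 93.9% and H2-T22-202 0%. The gene's total changed little, with 162 and 157 counts. For Tapbp, Tapbp-206 led the first quantification with 48.3% and 44.8%, and Tapbp-201 the second with 72.8% and 70.5%, both coding. B2m has 1 annotated transcript, and H2-T23, H2-D1, Cd74 and H2-Aa had 87% or more on protein-coding transcripts in both hearts and quantifications.

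**Figure D5:**
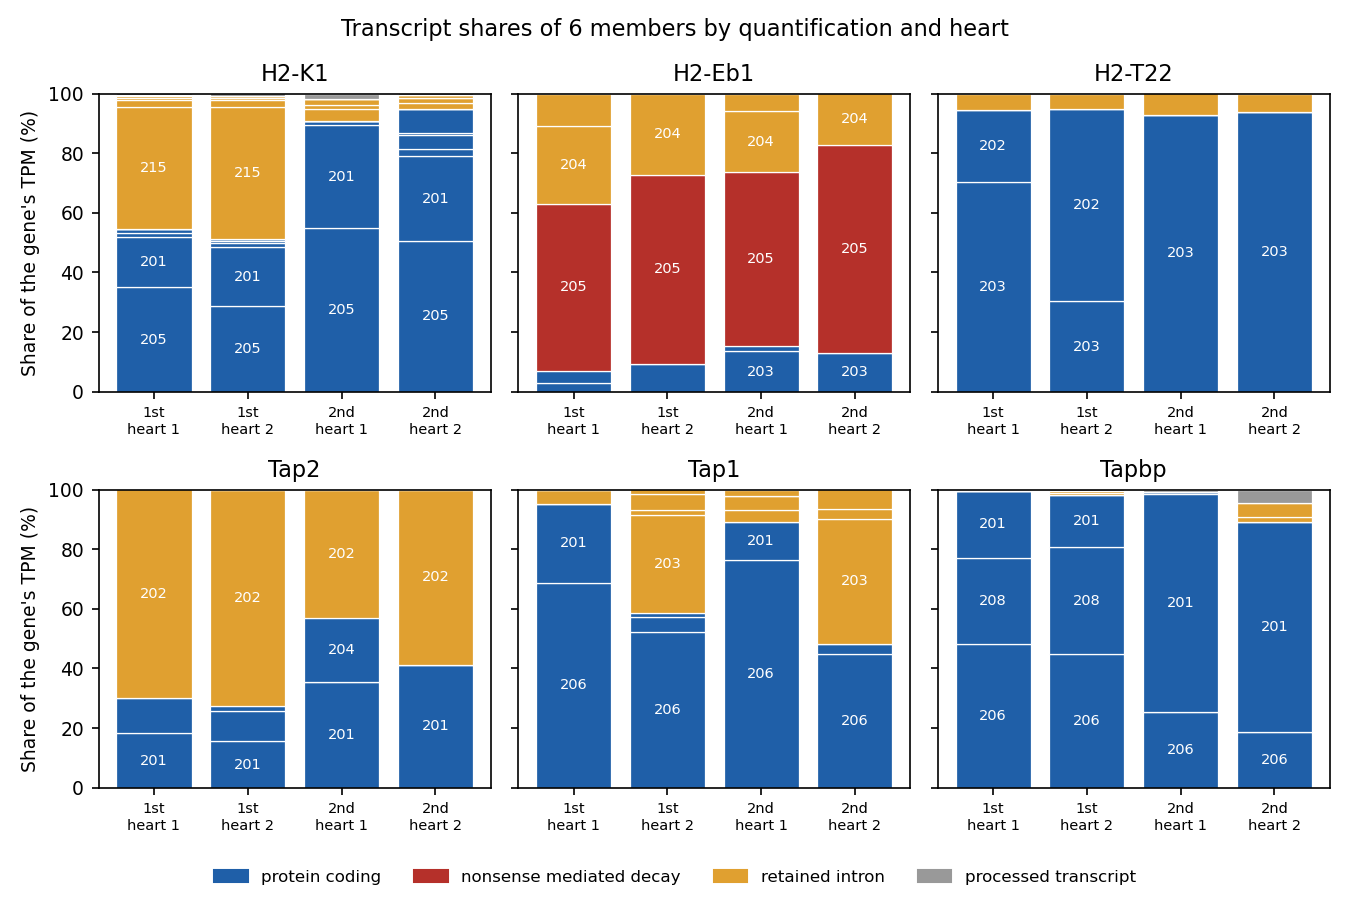
Share of the gene's TPM (%) on each annotated transcript of 6 members, as stacked bars for the first and second quantification in heart 1 (replicate 1) and heart 2 (replicate 2), coloured by annotated biotype, with transcript numbers on segments of 12% or more. H2-K1-215 fills 41.0% and 44.2% in the first quantification and is missing in the second, H2-Eb1-205 and Tap2-202 lead throughout, and H2-T22-202 and H2-T22-203 trade places between the hearts in the first only.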

How the data were processed

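Expression was measured by total RNA sequencing in 2 hearts. Estimated counts, TPM, posterior means and TPM bounds per gene were deposited by the authors in a first quantification, made from a transcriptome alignment per the deposited text files. TPM (tpm) and estimated counts (expected counts) per transcript were deposited by the authors in a second, made from the reads, and were summed per gene here. The percent of each gene's TPM per transcript was deposited by the authors beside the first. The level of the deposited TPM bounds is not stated in the file headers. The assembly is mm10 with GENCODE M21, per the deposited text files, and no source used here gives the tools or their versions.

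Symbols, biotypes and coordinates came from GENCODE M21. Counts were rounded and scaled by TMM (edgeR 4.0.16, R 4.3.3) over all genes, without 26248 transfer RNA rows and 97 spike-in rows. Genes at a mean of 1 CPM were compared between hearts. The scaling and the fold between hearts were tested on simulated counts. Unique stretches were counted over 100-base windows of all annotated transcripts. Python 3.11.15, pandas 2.3.3 and scipy 1.17.1 were used. Alternatives (DESeq2 1.42.0 size factors, other scalings, filters, pseudocounts and the second quantification) are in the closing section.

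Every member with a mean of 1 TPM or more in either quantification is named with its values, as are members 1.5-fold apart between hearts or 2-fold apart between quantifications, and list genes were named from those that are highest, lowest, paired or 2-fold apart, with list sums or counts for the rest. Members, lists, pairs and motifs were chosen with earlier results of these data known. Read copies made by PCR are not independent molecules and no source used here mentions molecular identifiers, so intervals and floors cover counting error only.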

Additional observations from a re-analysis of the deposited data

Results flagged for a closer look

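Genes with the H2- prefix that are not annotated as protein-coding lie outside the rule, and 5 of 11 had more than 3 counts in each heart, the limit that a count of 0 allows. H2-T-ps, an unprocessed pseudogene, had 2.43 and 1.85 TPM (2.14 ± 0.410) from 76.8 and 63.1 counts. H2-Ea-ps (chromosome 17, 34341959 to 34344645, minus strand) had 2.11 and 1.99 TPM (2.05 ± 0.0849) from 62 and 57 counts. It is annotated as a polymorphic pseudogene: C57BL/6 mice carry a deletion at the start of this E alpha chain gene and do not express it, while some other haplotypes do. All of its 937 transcript stretches of 100 bases were unique to it, and from which haplotype its reads came was not tested. H2-K2 had 0.85 and 0.76 TPM (0.805 ± 0.0636), H2-Q5 had 0.48 and 0.23 (0.355 ± 0.177) and H2-T10 had 0.22 and 0.29 (0.255 ± 0.0495). The unique share of stretches was 98.4% for H2-K2, 94.6% for H2-T-ps, 92.9% for H2-T10 and 86.0% for H2-Q5. In the second quantification H2-Ea-ps had 2.53 and 1.93 TPM.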

How the results depend on the processing

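Of 211 values recomputed for 35 results, 184 were labelled as staying, 26 as moved and 1 as reversed. For log2 ratios, staying meant lying within the spread or interval given. Results that are counts have no spread or interval, and a count could differ from its main value and still be labelled as staying. With TPM rescaled over protein-coding genes outside the mitochondrial genome, for example, 21 members reached 1 TPM against 16, and this was labelled as staying. The reversed value was Nlrc5 over Ciita, at -0.26 with the second quantification. The number of members with a count above 0 in both hearts was 28, against 16 at 1 TPM. Classical class I over class II was 1.57 with the second quantification and 2.30 with all class I heavy chains, and 1.72 to 2.10 with 1 heart left out. With 2 hearts, a ratio between genes with 1 heart left out always lies within 1 SD of the mean. Such ratios could only stay, they are counted among the 184, and they do not test stability. Leaving out a heart gave 16 to 17 members at 1 TPM. The count of members 2-fold apart between hearts was 0, and 1 (H2-Q10) with no filter beyond 1 count. Members 2-fold apart between quantifications numbered 2, but 0 with a pseudocount of 1 TPM, 0 at 5 TPM, 4 with no filter and 1 to 2 with a heart left out (1 without replicate 2). Scaling by spike-in totals moved the median of all genes to -0.13, with 3 members higher and 13 lower. Under each scaling 6 of 16 members lay above the median of all genes. A scaling of the same counts shifts every log2 ratio alike, so that count could not change and does not test stability. The count of pairs with one direction could not be formed with a heart left out, since it needs an SD. No paired analysis was possible because there is 1 group. Depth limits the members under about 50 counts, where an interval spans more than 1 on the log2 scale.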
